A study of Homo sapiens with 6 samples.

Results

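The snoRNA host lncRNA genes are long noncoding RNA genes whose introns carry small nucleolar RNAs (snoRNAs), and they were chosen here by name. Genes whose GENCODE symbol is SNHG followed by a digit were taken, together with GAS5, EPB41L4A-AS1, ZFAS1 and DANCR, which gave 32 genes of the 58302 genes in the count files. All 32 were found by their Ensembl identifiers, and 24 of them had enough reads to be tested among 15075 tested genes. The libraries came from MDA-MB-231, an established human triple-negative breast cancer cell line, carrying either a control shRNA (3 libraries) or Smyca shRNA #1, which targets the lncRNA Smyca (3 libraries). One shRNA sequence was used and the labels name no rescue, so an effect of Smyca loss and an effect of that shRNA sequence cannot be told apart. The study describes the 3 libraries of each group as biological repeats, and rRNA was removed from the RNA before strand-specific libraries were made.

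A snoRNA host gene is transcribed by RNA polymerase II, spliced, and its excised introns are trimmed to release snoRNAs, which guide 2′-O-methylation (box C/D class) or pseudouridylation (box H/ACA class) of ribosomal and spliceosomal RNA. The spliced host RNA often has only short reading frames and is commonly degraded by nonsense-mediated decay when it is translated, so its level depends on decay as well as on transcription. Many host genes, like ribosomal protein genes, start transcription at a cytosine followed by pyrimidines, the terminal oligopyrimidine (TOP) start. Several of these genes are known targets of c-Myc, and GAS5 was first found through its accumulation in growth-arrested cells. The comparison asks whether Smyca knockdown altered the level of these genes.

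The depth was even, with 14999307 to 16501085 counts per library. MIR23AHG, the gene symbol that covers Smyca, had 24.99, 19.5 and 22.0 CPM (counts scaled to a common library size with the TMM composition factor) in control repeats 1, 2 and 3, and 10.5, 6.97 and 5.61 in knockdown repeats 1, 2 and 3. Every knockdown library lay below every control library, with a log2 fold change of -1.53 ± 0.26 (SE) and an adjusted p of 0.111 in the edgeR test. The marker genes of the cell line did not all match its label. VIM, CD44, AXL and CAV1, usual for this mesenchymal line, were present, but SPARC was at most 0.677 CPM, while the epithelial genes CDH1 (71.5 to 300.1 CPM) and EPCAM (236 to 336 CPM) and the gut and liver genes VIL1 and HNF4A (65.4 to 501 CPM) were present in all 6 libraries. ESR1 and PGR were at or near 0, as were the blood genes (PTPRC, CD3E, HBB) and ALB, AFP, APOA1, FABP1, TTR and CEACAM5. CDH17 (0.704 to 4.25 CPM) and LGALS4 (0.330 to 1.34 CPM) were low, and CDX2 had 6.08 to 11.1 CPM. VIM, CD44, CAV1 and AXL had log2 fold changes, knockdown over control, of -1.09, -0.94, -1.01 and -0.37. The epithelial, gut and liver genes named here went both ways. VIL1, HNF4A, CDH17 and CDX2 had 0.62, 0.45, 1.23 and 0.28, and CDH1, EPCAM and LGALS4 had -0.72, -0.032 and -1.14. None of these markers had an adjusted p under 0.05 in edgeR. The part of these markers in the results below was not tested.

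One library needs a separate statement before the results. In control repeat 2, the deposited FPKM values did not follow the deposited counts: 3357 genes had 0 counts and an FPKM above 0, against 0 such genes in each of the other 5 libraries. Whole reads could be recovered from that FPKM column, 16759253 in all, and over 15036 genes their median absolute log2 difference was 0.36 from the library's own counts but 0.10 from the counts of control repeat 3. Among the 24 tested host genes, 21 were within 1.2-fold of control repeat 3 and 3 within 1.2-fold of the library's own counts. The counts as deposited are used unless the recovered reads are named. A later paragraph gives the main changes with the recovered reads, and the spreads between libraries are given for the deposited counts only. Which column belongs to control repeat 2 cannot be told from the files.

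The start sites of the host genes are shown because the TOP start is the sequence feature these genes are known for. Each line gives 10 bases before the annotated RefSeq start and 30 from it, on the gene's own strand, in GRCh38.p14. Capitals mark a first base C with the unbroken run of C or T after it, of at least 4, and a line without capitals has no such run at the annotated start.
SNHG5 (chr6:85678704-85678743, minus strand): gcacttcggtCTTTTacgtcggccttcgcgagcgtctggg
SNHG32 (chr6:31834906-31834945, plus strand): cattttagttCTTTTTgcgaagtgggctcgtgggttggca
SNHG19 (chr16:2155329-2155368, minus strand): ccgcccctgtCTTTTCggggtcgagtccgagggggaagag
ZFAS1 (chr20:49278632-49278671, plus strand): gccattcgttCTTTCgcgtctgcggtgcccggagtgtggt
SNHG4 (chr5:139274091-139274130, plus strand): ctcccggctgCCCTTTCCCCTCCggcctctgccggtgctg
SNHG12 (chr1:28581844-28581883, minus strand): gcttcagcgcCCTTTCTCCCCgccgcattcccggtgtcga
SNHG1 (chr11:62855856-62855895, minus strand): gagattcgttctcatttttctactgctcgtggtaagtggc
DANCR (chr4:52712384-52712423, plus strand): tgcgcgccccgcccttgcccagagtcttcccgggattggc
The RefSeq promoter table matched 28 of the 32 host genes and 22 of the 24 tested ones. A TOP start was found in 6 of those 22, which is 27.3%, beside 4.07% of all 35116 promoters in the table. The E-box CACGTG, the c-Myc/Max motif, which reads alike on both strands, was present in the 300 bases around the start of 2 of the 22, SNHG7 and SNHG30, beside 7.26% of all promoters. A match is only a description of the letters, and the annotated start is one position of what can be several. The windows shown for GAS5 (chr1:173869016-173869055) and SNHG3 (chr1:28505933-28505972) would lie wholly outside the GENCODE bounds of these genes. Both are counted here as without a TOP start.

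The levels of the host genes spanned a wide range. On the per-length scale (CPM divided by the gene length in kilobases that the deposited FPKM values imply), SNHG5, the host of SNORD50A and SNORD50B, was highest, at 572 ± 91.1 (SD over the 6 libraries). GAS5 followed at 508 ± 98.4, SNHG29 at 369 ± 69.5, SNHG32 at 264 ± 60.2, DANCR at 239 ± 33.9, SNHG6 at 191 ± 37.5, SNHG1 at 189 ± 80.2 and SNHG7 at 133 ± 22.6. In GENCODE on GRCh38, SNHG5 spans chr6:85650491-85678932 on the minus strand and GAS5 chr1:173858559-173868882 on the minus strand, and RefSeq lists 11 snoRNA genes inside those bounds of GAS5. SNHG5 was above GAS5, GAS5 above SNHG29, SNHG29 above SNHG32 and SNHG7 above the next gene, SNHG8, in 6 of 6 libraries each. SNHG32 was above DANCR in 4 of 6 libraries, and SNHG6 was above SNHG1 in 1 of 6, so these neighbours did not differ beyond their spread. SNHG5, GAS5, SNHG29, SNHG32 and SNHG7 together held 60.4% of the summed CPM of all the host genes.

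The remaining 8 host genes were not tested because their counts were too low. SNHG18 and SNHG27 had 0 counts in every library. SNHG9, SNHG14, SNHG22, SNHG25, SNHG28 and SNHG31 had at most 14 counts in any library. SNHG14, the long transcript of the imprinted Prader-Willi region that carries the SNORD115 and SNORD116 clusters, was among these.

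No snoRNA host gene changed by the study's criteria, a ratio of control to knockdown of at least 1.5 or at most 0.66 together with an adjusted p under 0.05. Over all 15075 genes, 4 passed those criteria in edgeR (0.0265%), 836 did with DESeq2, and 0 of the host genes did with either tool. The study applied them with DESeq and reported more genes than either fit here. At an unadjusted p under 0.05, 0 of the 24 host genes passed in edgeR or in DESeq2, and in edgeR 19.2% of all tested genes did. For the direction lower in the knockdown alone, 10.4% of all tested genes passed and 0 host genes. The 3 control values and 3 knockdown values overlapped for all 24 host genes, whereas the groups did not overlap in 24.8% of all tested genes. The smallest adjusted p among the host genes was 0.360, for SNHG20. The p-values that missed the threshold do not show that the groups were alike, and the intervals below give what the data allow.

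The direction of the estimates was mostly downward, without a test behind it. The log2 fold change, knockdown over control, was below 0 for 18 of the 24 host genes, beside 53.4% of all tested genes. The median was -0.19 over the host genes and -0.036 over all genes. In the counts as deposited this direction rested on control repeat 3. Without it 12 of the 24 estimates were above 0 and the median was 0.050, and without knockdown repeat 3 the median was -0.045. With the recovered reads of control repeat 2, 22 of the 24 were below 0 and the median was -0.33. By the ratio criterion alone, without a p, 2 host genes passed (SNHG20 and SNHG21, both lower in the knockdown), where 21.2% of all tested genes did. The 95% interval held 0 for all 24 genes. It lay within 1.5-fold in either direction for 4 of them (SNHG5, SNHG8, SNHG16 and DANCR), it reached 1.5-fold lower for 16 and 1.5-fold higher for 9.

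Among the most abundant members, the box C/D hosts SNHG5 and GAS5 had estimates below 0 with intervals that held 0. SNHG5 had 403, 326 and 483 CPM in control repeats 1, 2 and 3 and 408, 348 and 329 in knockdown repeats 1, 2 and 3. Its means were 404 ± 78.7 and 361 ± 41.5 CPM (SD, n = 3), with a log2 fold change of -0.16 (95% interval -0.57 to 0.25). GAS5, whose RNA can bind the glucocorticoid receptor, had 387, 278 and 482 CPM in the controls and 403, 333 and 328 in the knockdown libraries. Control repeat 3 was the highest of the 6 and control repeat 2 the lowest for both genes, so the knockdown libraries lay inside the range of the controls, and the log2 fold change of GAS5 was -0.11 (95% interval -0.59 to 0.37). With the recovered reads control repeat 2 had 502 CPM of SNHG5 and 465 CPM of GAS5, which left knockdown repeats 2 and 3 below every control for both genes. The log2 fold changes were then -0.35 for SNHG5 and -0.32 for GAS5, with adjusted p of 0.250 and 0.287 in edgeR.

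SNHG29, SNHG32 and SNHG6, which carry other box C/D snoRNAs, had estimates above 0. SNHG29 had 304, 206 and 345 CPM in the controls and 301, 272 and 364 in the knockdown libraries, a log2 fold change of 0.13 ± 0.21 (SE). SNHG32 had 191, 135 and 270.0 CPM in the controls and 209, 195 and 249 in the knockdown libraries, a log2 fold change of 0.13 ± 0.24. SNHG6 had 86.6, 74.6 and 114 CPM in the controls and 97.7, 97.3 and 130 in the knockdown libraries, a log2 fold change of 0.24 ± 0.20. For these 3 genes knockdown repeat 3 was the highest knockdown library and control repeat 2 the lowest of all 6, and the groups overlapped. The direction rested on the counts of control repeat 2: with its recovered reads the log2 fold changes were -0.073 for SNHG29, -0.15 for SNHG32 and -0.017 for SNHG6. Without that library those of SNHG29 and SNHG32 were -0.053 and -0.078, and that of SNHG6 was 0.11.

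The H/ACA hosts SNHG7 (host of the SNORA17 pair) and DANCR (host of SNORA26, known for holding epidermal progenitors undifferentiated) also had estimates above 0. SNHG7 had 190, 143 and 199 CPM in the controls and 230, 225 and 170 in the knockdown libraries, a log2 fold change of 0.23 ± 0.19 (SE) and an adjusted p of 0.526 in edgeR. DANCR had 141, 162 and 181 CPM in the controls and 185, 198 and 141 in the knockdown libraries, a log2 fold change of 0.12 ± 0.18. In both genes knockdown repeats 1 and 2 were above all controls and knockdown repeat 3 was not.

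The lowest estimates among well-counted members were those of SNHG20, SNHG3 and SNHG1. In the counts as deposited these estimates rested on 1 library of each group. SNHG20 had 12.03, 10.95 and 21.3 CPM in the controls and 11.4, 11.3 and 5.15 in the knockdown libraries, a log2 fold change of -0.67 ± 0.37 (SE). SNHG3, the host of SNORA73A and SNORA73B, had 69.1, 76.8 and 159 CPM in the controls and 76.9, 88.5 and 41.5 in the knockdown libraries, a log2 fold change of -0.56 ± 0.37 and an adjusted p of 0.435 in edgeR. SNHG1, a host of box C/D snoRNAs on chromosome 11 (chr11:62851978-62855953, GRCh38, minus strand), had 139, 137 and 281 CPM in the controls and 162, 160 and 75.4 in the knockdown libraries, a log2 fold change of -0.49 ± 0.36. In all 3 genes control repeats 1 and 2 and knockdown repeats 1 and 2 lay close together, control repeat 3 stood above them and knockdown repeat 3 below. Without control repeat 3 the log2 fold changes became -0.30 for SNHG20, -0.074 for SNHG3 and -0.055 for SNHG1. With the recovered reads control repeat 2 was also high, at 26.0 CPM of SNHG20, 165 of SNHG3 and 283 of SNHG1. The log2 fold changes were then -1.08, -0.92 and -0.82.

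SNHG17, which carries the SNORA71 family, showed the same order with a smaller range. It had 70.3, 66.0 and 108 CPM in the controls and 65.3, 81.7 and 48.0 in the knockdown libraries, a log2 fold change of -0.32 ± 0.25 (SE). SNHG30, the host of SNORD7, had 14.9, 16.6 and 13.6 CPM in the controls and 13.3, 14.001 and 8.98 in the knockdown libraries, a log2 fold change of -0.31 ± 0.23. EPB41L4A-AS1, the host of SNORA13, had 52.1, 39.2 and 67.9 CPM in the controls and 48.6, 39.98 and 42.6 in the knockdown libraries, a log2 fold change of -0.28 ± 0.21. ZFAS1, the antisense neighbour of ZNFX1 and host of the SNORD12 family, had 19.8, 17.0 and 44.1 CPM in the controls and 19.9, 21.9 and 26.2 in the knockdown libraries, a log2 fold change of -0.25 ± 0.34. ZFAS1 was thus higher in control repeat 3 than in any other library, and without that library its log2 fold change was 0.30. With the recovered reads control repeat 2 had 46.2 CPM of ZFAS1, and the log2 fold change was -0.69.

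The other well-counted members had means that differed by less than the spread of the controls. SNHG8, the host of SNORA24, had 46.5 ± 11.03 CPM in the controls and 45.7 ± 9.76 in the knockdown libraries (SD, n = 3). SNHG16, the host of the SNORD1 group, had 54.6 ± 3.42 and 53.6 ± 8.49 CPM. SNHG15, the host of SNORA9, had 77.1 ± 34.1 and 69.2 ± 9.25 CPM. SNHG12, which carries SNORD99 and H/ACA snoRNAs, had 31.1 ± 12.5 and 23.8 ± 10.5 CPM. SNHG4, the host of SNORA74A, had 19.3 ± 9.40 and 19.6 ± 4.61 CPM, the estimate nearest to 0 at a log2 fold change of 0.017, which was -0.27 with the recovered reads.

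Lower members were SNHG10, SNHG11 and SNHG26. SNHG10, the host of SCARNA13, had 14.5 ± 3.76 CPM in the controls and 12.2 ± 5.55 in the knockdown libraries (SD, n = 3). SNHG11 had 14.5 ± 4.70 and 14.02 ± 3.41 CPM, and SNHG26 had 1.88 ± 1.76 and 1.52 ± 0.445 CPM. The spread of SNHG26 in the controls came from control repeat 3, at 4.53 times the mean of the other controls.

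In the counts as deposited, the host genes varied between repeats of the same group more than most genes did. The median SD of log2 levels within the controls was 0.39 for the 24 host genes and 0.25 for all tested genes, and within the knockdown libraries 0.31 and 0.22. For 23 of the 24 the fold between the highest and the lowest control exceeded the fold between the groups. Control repeat 3 was the highest of the 6 libraries for 17 of the 24 host genes, beside 22.1% of all tested genes. Knockdown repeat 3 was the lowest of the 6 for 10 of the 24, beside 18.9% of all genes, and control repeat 2 for another 10, beside 10.9%. Summed over all 32 host genes, the share of each library's counts was 0.228, 0.200 and 0.326% in control repeats 1, 2 and 3 and 0.251, 0.228 and 0.208% in knockdown repeats 1, 2 and 3. The labels give no batch, date or culture that separates these libraries, and the source of this pattern was not tested.

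**Figure D1:**
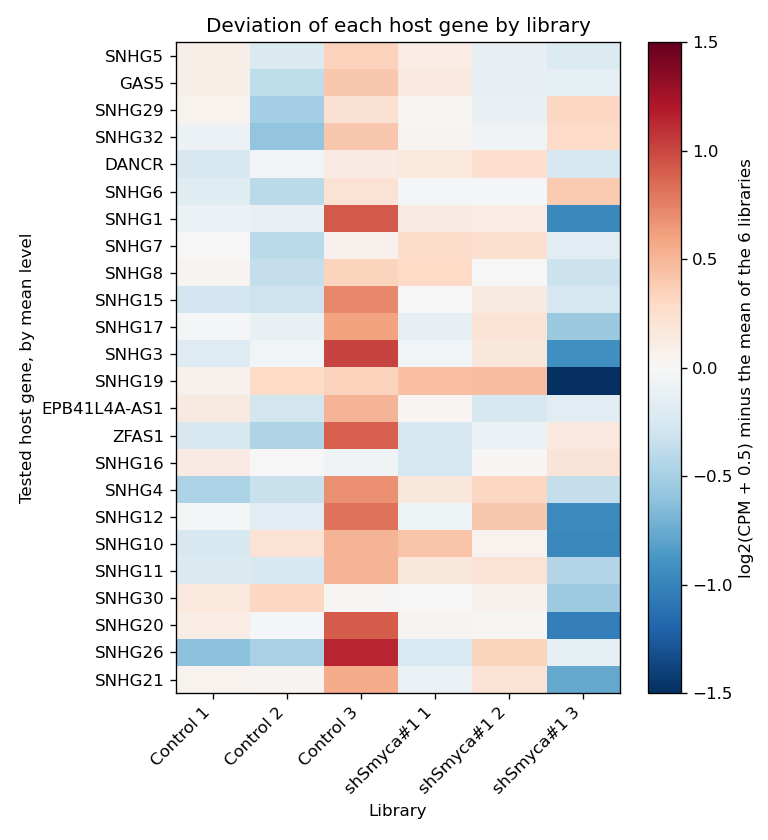
Deviation of each tested host gene (rows, by mean level) from its own mean over the 6 libraries (columns), in log2(CPM + 0.5); red is above and blue below the mean. The column of control repeat 3 is red for nearly every gene, and the column of knockdown repeat 3 is blue for most genes and red for SNHG29, SNHG32, SNHG6, ZFAS1 and SNHG16.

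The members split by how they stood in knockdown repeat 3. That library was the lowest knockdown library for 17 of the 24 host genes (38.1% of all tested genes) and the highest for 5, SNHG29, SNHG32, SNHG6, ZFAS1 and SNHG16 (39.5% of all tested genes). The largest drop there was that of SNHG21, at 0.208 times the mean of the other knockdown libraries, followed by SNHG19, at 0.217 times. SNHG19 had 12.8 to 17.1 CPM in the other 5 libraries and 3.70 CPM in knockdown repeat 3. SNHG21 was near the detection limit, at 0.132 to 1.09 CPM. SNHG19 and SNHG21 are named here after their values were seen.

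The deposited column used for control repeat 2 mattered to these estimates. With the reads recovered from its FPKM column, SNHG1 had 283 CPM in control repeat 2 in place of 137, SNHG3 had 165 in place of 76.8 and ZFAS1 had 46.2 in place of 17.0. The recovered level exceeded the counted one by over 1.5-fold for 17 of the 24 host genes. The log2 fold change was then below 0 for 22 of the 24, SNHG29, SNHG32, SNHG6 and SNHG4 having changed sign, and it was -1.08 for SNHG20, -0.92 for SNHG3 and -0.53 for EPB41L4A-AS1. These 3 had an unadjusted p under 0.05 in that edgeR fit, and the smallest adjusted p among the host genes was 0.151, so none passed the criteria. Other log2 fold changes in that fit were -0.75 for SNHG26, -0.64 for SNHG12, -0.55 for SNHG17, -0.47 for SNHG15 and 0.070 for SNHG7.

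Grouped by the annotated start, members with and without a TOP start had overlapping estimates. The 6 tested members with a TOP start had log2 fold changes from -0.39 to 0.13 with a median of -0.19, and the 16 members matched to a start without one ranged from -0.71 to 0.23 with a median of -0.27. Their median per-length levels were 36.7 and 44.2. No test was made between the groups, and GAS5 and SNHG3 were grouped by a start outside their GENCODE bounds.

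Several host genes share their locus with a protein-coding gene, and the counts of both genes are less certain there because the strand setting of the counting is not given in the sources used here. Overlapping protein-coding genes were compared for 11 host genes other than GAS5, 12 in all, of which 9 lie on the other strand. None of the 12 passed the study's criteria in edgeR. Of these, 3 had an unadjusted p under 0.05, all higher in the knockdown, beside 8.74% of all tested genes in that direction and 19.2% in either, and they are named after their values were seen. ZNFX1, on the other strand from ZFAS1, had 43.4 to 48.2 CPM in the controls and 58.5 to 64.9 in the knockdown libraries, a log2 fold change of 0.46 ± 0.13 (SE) and an adjusted p of 0.140 in edgeR. RCC1, the exchange factor of Ran, which overlaps SNHG3 on the same strand, had 170, 187 and 205 CPM in the controls and 219, 329 and 329 in the knockdown libraries (log2 fold change 0.64 ± 0.19). GLRX5, a mitochondrial glutaredoxin gene beside SNHG10, had a log2 fold change of 0.36 ± 0.16. The groups did not overlap for these 3 neighbours, nor for TRNAU1AP beside SNHG12, which was lower in the knockdown (16.3 CPM in the controls and 13.5 in the knockdown libraries, log2 fold change -0.26 ± 0.18). That made 4 of the 12, beside 24.8% of all tested genes, and the groups overlapped for ZFAS1, SNHG3, SNHG10 and SNHG12 themselves.

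Most snoRNAs inside the host genes had no counts, and few had enough for a test. GENCODE places 145 snoRNA or scaRNA genes inside 31 of the host genes on the same strand, and 17 of them had at least 1 count. SNHG14 alone holds 84 of the 145, and 0 of these had a count. Of the 145, 80 lie inside an annotated exon, and 7 of those had at least 1 count. GAS5 is the host gene without one in GENCODE, while RefSeq lists 11 inside it. Reads of the mature snoRNA, of unspliced host RNA and of host exons that contain the snoRNA cannot be told apart in these counts. The sequences of 4 are shown because they were among the most counted of their class, a choice made after the values were seen. In the box C/D snoRNAs capitals mark the C box motif TGATGA and the D box motif CTGA, and in the H/ACA snoRNAs they mark the ACA box near the 3′ end. All are read from GENCODE on GRCh38.
SNORD104 (in SNHG25, chr17:64146083-64146152, plus strand): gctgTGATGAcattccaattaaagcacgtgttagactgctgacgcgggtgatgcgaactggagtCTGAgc
SNORD12C (in ZFAS1, chr20:49278940-49279028, plus strand): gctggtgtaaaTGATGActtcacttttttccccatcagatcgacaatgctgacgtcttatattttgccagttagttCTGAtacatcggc
SNORA71C (in SNHG17, chr20:38429670-38429803, minus strand): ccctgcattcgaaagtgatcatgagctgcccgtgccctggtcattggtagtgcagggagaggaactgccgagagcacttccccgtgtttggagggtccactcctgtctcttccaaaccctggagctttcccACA
SNORA73B (in SNHG3, chr1:28508559-28508762, plus strand): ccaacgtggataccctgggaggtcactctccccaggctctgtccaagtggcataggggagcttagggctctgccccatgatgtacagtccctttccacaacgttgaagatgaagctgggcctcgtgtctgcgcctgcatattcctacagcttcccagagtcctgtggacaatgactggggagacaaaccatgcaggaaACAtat

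SNORA71C, which lies inside an annotated exon of SNHG17, had 93, 50 and 77 counts in control repeats 1, 2 and 3 and 61, 78 and 47 in knockdown repeats 1, 2 and 3. SNORA73B, which overlaps no annotated exon of SNHG3, had 8, 12 and 74 counts in the controls and 4, 14 and 2 in the knockdown libraries. SNORD104 had 16, 13 and 35 counts in the controls and 10, 28 and 7 in the knockdown libraries, while its host SNHG25 was too low to test. SNORD12C had 10, 2 and 28 counts in the controls and 6, 6 and 2 in the knockdown libraries. For SNORA73B, SNORD104 and SNORD12C control repeat 3 was the highest library, as it was for SNHG3 and ZFAS1, and the groups overlapped for all 4.

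Of these snoRNA genes, 4 had enough counts to be tested: SNORA73B, SNORD104, SNORA71B and SNORA71C. The log2 fold change of SNORA73B was -2.20 ± 0.97 (SE), with an adjusted p of 0.265 in edgeR, and the other 3 lay between -0.48 and -0.20. Summed over the 145 genes, the counts were 166, 118 and 308 in the controls and 142, 182 and 99 in the knockdown libraries, highest in control repeat 3 and lowest in knockdown repeat 3.

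The genes that make and read snoRNAs had estimates above 0 for most members, although none passed the study's criteria in edgeR. In the list of snoRNP core and assembly proteins, which bind snoRNAs and protect them, 5 of 18 had an unadjusted p under 0.05, all higher in the knockdown, beside 8.74% of all tested genes in that direction, and the median log2 fold change was 0.27. NHP2, an H/ACA core protein, had 49.2, 55.0 and 49.1 CPM in the controls and 66.4, 81.6 and 87.0 in the knockdown libraries, a log2 fold change of 0.62 ± 0.15 (SE). GAR1, another core protein of the same class, had a log2 fold change of 0.68 ± 0.22. The groups did not overlap for either gene, as for 24.8% of all tested genes.

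The next lists cover host RNA decay, control of TOP mRNAs and snoRNA trimming. Beside their counts stands again 8.74% of all tested genes, for an unadjusted p under 0.05 and a higher level in the knockdown. In the list for nonsense-mediated decay and the exon junction complex, 6 of 20 had an unadjusted p under 0.05, all higher in the knockdown, with a median log2 fold change of 0.27. UPF1, the helicase at the centre of that pathway, had 217, 249 and 220 CPM in the controls and 333, 374 and 355 in the knockdown libraries, a log2 fold change of 0.63 ± 0.14 (SE). In the list for control of TOP mRNAs by mTORC1 and LARP1, 8 of 16 had an unadjusted p under 0.05, all higher in the knockdown, with a median of 0.38. LARP1, which binds TOP RNA ends, had 334, 340 and 332 CPM in the controls and 547, 563 and 519 in the knockdown libraries, a log2 fold change of 0.70 ± 0.13. EIF4G1, a translation initiation scaffold, had a log2 fold change of 0.87 ± 0.19. In the list for snoRNA trimming and the exosome, 2 of 15 passed the unadjusted threshold, MTREX (log2 fold change 0.66 ± 0.22) and DBR1, the lariat debranching enzyme (0.42 ± 0.17), both higher in the knockdown, and the median was 0.20. Such counts depended on single libraries. All the pathway lists, protein-coding hosts included, held 26 genes under the unadjusted threshold, and 12 to 40 with 1 library left out.

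Protein-coding genes that carry snoRNAs in their introns had estimates in both directions, and none passed the study's criteria in edgeR. At an unadjusted p under 0.05, 3 of 38 were higher in the knockdown and 2 lower, beside 8.74% and 10.4% of all tested genes. The median log2 fold change was -0.0064. SF3B3, a spliceosome component, had 665, 755 and 684 CPM in the controls and 943, 1215 and 1192 in the knockdown libraries, a log2 fold change of 0.67 ± 0.16 (SE). NCL, which encodes nucleolin, had a log2 fold change of 0.74 ± 0.22. Across all tested genes, 1318 had an unadjusted p under 0.05 and were higher in the knockdown and 1575 were lower.

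**Figure D2:**
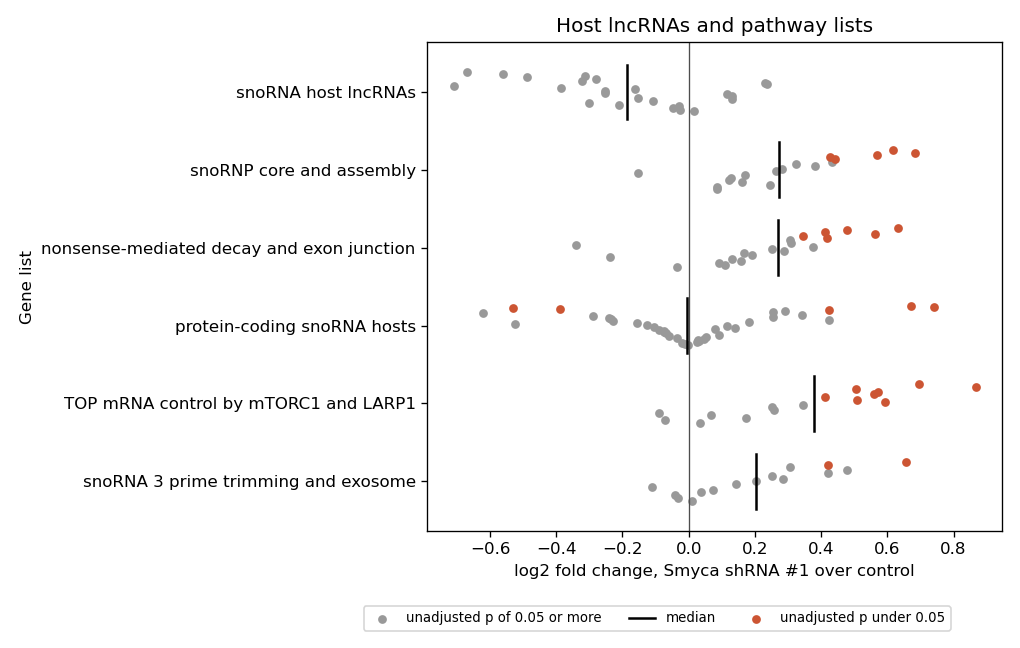
Log2 fold change, Smyca shRNA #1 over control, for the 24 tested snoRNA host lncRNAs and for the tested genes of each pathway list; each dot is a gene, orange where the unadjusted p is under 0.05, and the black bar is the list's median. No host lncRNA is orange, and the medians are -0.19 for the host lncRNAs, 0.27, 0.27, -0.0064, 0.38 and 0.20 for the lists from top to bottom.

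The genes whose profile over the 6 libraries was most like that of GAS5 are given as a description. By Pearson's r of log2 CPM over these 6 libraries, which share their composition and depth, the 5 closest genes outside the members were HSPA8P15 (0.994), RPL7AP19 (0.992), ENSG00000227775 (0.989), NBPF11 (0.988) and ZBED3-AS1 (0.987). HSPA8P15 and RPL7AP19 carry pseudogene names, and their reads could come from a near-identical copy. Their levels were low, at 0.308 to 1.22 and 0.677 to 1.99 CPM. These genes were picked as the highest r among all tested genes outside the members, so a high r was given by the choice. Among the members, SNHG5 was closest to GAS5 (r = 0.964), followed by EPB41L4A-AS1 (0.937) and SNHG8 (0.911).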

How the data were processed

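RNA from 6 MDA-MB-231 libraries was sequenced. Per the labels and the study's methods, the authors aligned reads to GRCh38/hg38 with TopHat2 2.0.12 and counted them per Ensembl gene with HTSeq; the annotation release and strand setting are not given in the sources used here. The deposited files hold raw counts and FPKM, which the authors scaled to library size and gene length. Symbols came from GENCODE release 44, which matched 57532 of 58302 identifiers, and starts from the RefSeq promoter table.

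Counts were tested with edgeR 4.0.16 (R 4.3.3): TMM factors, filterByExpr, quasi-likelihood F-test of 3 control against 3 Smyca shRNA #1 libraries, Benjamini-Hochberg over all 15075 genes. SE is the log2 fold change divided by the square root of F. Gene lengths were those implied by count and FPKM. Whole reads behind the FPKM of control repeat 2 were recovered for 23593 genes, 100% within 0.02 reads of a whole number; 996 genes with an FPKM had no derived length. The test was checked on simulated data. DESeq2 1.42.0, other scaling, filters, a replicate block and left-out libraries were alternatives. The members and gene lists were chosen with earlier results of these data known. Values per library are given for members past the criteria, the 8 with the highest per-length level, the 8 with the smallest unadjusted p, and GAS5, EPB41L4A-AS1, ZFAS1 and DANCR; in each list the 2 with the smallest p are named. Some genes that these rules or lists would name are not reported here.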

Additional observations from a re-analysis of the deposited data

How the results depend on the processing

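No host gene passed the study's criteria under any of the 13 alternatives, nor at an adjusted p under 0.05 or under 0.1 without a ratio, and their smallest adjusted p over all of these was 0.145 (SNHG6, without control repeat 3). Counts of host genes with an unadjusted p under 0.05 were 3 with no filter beyond 1 count, 3 with the reads recovered for control repeat 2, and from 0 to 1 when 1 library was left out (SNHG6, log2 fold change 0.43, without control repeat 3). Their median log2 fold change ranged from -0.30 to 0.050 over the left-out libraries: it was above 0 without control repeat 3, when 12 of the 24 estimates were above 0, -0.045 without knockdown repeat 3, and -0.33 with the recovered reads. Calls over all genes, 4 here, were 8 with total counts, 916 with no filter, 836 with DESeq2, 10 with the recovered reads, and from 0 to 1628 over the left-out libraries, highest without control repeat 3. The pathway lists held 26 genes with an unadjusted p under 0.05, and 12 to 40 over the left-out libraries. The cause of these differences was not tested.

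With the repeat number as a replicate block, 0 genes were called, the median of the host genes was -0.11, and no host gene had an unadjusted p under 0.05. Deviations of same-numbered libraries correlated at 0.057, 0.087 and 2.1e-05, so the numbers were not taken as pairs. The 8 untested host genes had too few counts at this depth.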
